A study of Mus musculus with 30 samples.

Results

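Insulin changes the transcription of hepatocytes within hours, and the comparison described here asked whether that change differed when FoxK1 had been knocked down. It is the difference of differences for each gene, the insulin effect in FoxK1 KD cells minus the insulin effect in Control cells, on the log2 scale. All genes of 4 of the 8 groups of the series were taken, with no selection on their values. These groups hold 15 of the 30 libraries, and 11368 of the 49089 genes in the count tables passed the filter on low counts and were tested. A positive difference means that insulin raised a gene more, or lowered it less, in FoxK1 KD than in Control.

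The cells were AML12, a hepatocyte line from a mouse carrying a TGF-alpha transgene. Control cells had received a non-specific siRNA and FoxK1 KD cells an siRNA against Foxk1, so the knockdown was partial and no allele was altered. All cells were starved of serum overnight in albumin-containing medium. The groups were Control basal (n = 4), Control after 100 nM insulin for 6 h (n = 3), FoxK1 KD basal (n = 4) and FoxK1 KD after 100 nM insulin for 6 h (n = 4). The labels give time 0 for the basal cells, while the protocol speaks of mock treatment. The labels do not say that replicates were separate cultures, so the p-values measure the spread between these libraries, which may be technical. The libraries held 2345903 to 5668270 counts in genes, and the FoxK1 KD insulin libraries, with 2345903 to 2673390, were the shallowest.

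FoxK1 is a forkhead transcription factor that acts largely as a repressor through Sin3 complexes. FoxO factors leave the nucleus when insulin activates AKT, and starved cells then lose the fasting programme that FoxO drives. FoxK1 moves the other way in response to insulin and mTOR signalling, from cytoplasm to nucleus, and the comparison asks which genes respond to insulin differently when less FoxK1 is present. The hepatocyte genes that insulin is best known to raise serve cholesterol and fatty acid synthesis, glycolysis, amino acid metabolism and DNA replication.

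Foxk1 itself (chr5:142401497-142462011, GRCm38, plus strand) was lower in the knockdown in every library. Its level in CPM (counts scaled by library size) was 87.6, 83.5, 66.2 and 88.4 in Control basal libraries 1 to 4 and 52.2, 57.8 and 49 in the 3 Control insulin libraries. It was 38.9, 27.4, 38.8 and 42 in FoxK1 KD basal cells and 30.7, 28, 29.6 and 35.3 after insulin. The knockdown groups did not overlap the Control groups at either time, and the log2 change was -1.14 at basal and -0.78 after insulin. With insulin Foxk1 fell by 0.62 on the log2 scale in Control and its effect in FoxK1 KD was -0.26, and the difference was 0.36 ± 0.19 (SE, FDR = 0.404), which did not pass the threshold. The difference for Foxk2, the paralogue, was 0.04 ± 0.12 (SE, FDR = 0.93).

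The insulin responses of the 2 kinds of cells were shared in part. With the threshold used throughout, a false discovery rate (FDR) under 0.25 and a change over 1.5-fold, insulin changed 1367 genes in Control (12% of those tested, 691 or 6.08% up and 676 or 5.95% down) and 1463 in FoxK1 KD (12.9%, 933 or 8.21% up and 530 or 4.66% down). The same direction was called in both for 642 genes, which is 47.0% of the Control calls and 43.9% of the FoxK1 KD calls, and opposite directions were called for 9. Across the 11368 genes the 2 insulin effects, which share no libraries, had a Pearson r of 0.691. That value describes genes and not samples, and carries no test.

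The difference itself passed for 176 genes (1.55% of those tested). It was higher in FoxK1 KD for 133 genes (1.17%) and lower for 43 (0.378%). In this fit none passed an FDR of 0.05, the smallest FDR in edgeR being 0.0856. With the looser filter of at least 1 count in any sample (23784 genes tested), edgeR called 134 genes at an FDR under 0.05 and over 1.5-fold, and with the filter used here but without Control basal replicate 2 it called 23. The looser filter admits genes with as little as 1 count over all 30 libraries, and its smallest FDR was 2.11e-28. At an FDR under 0.25 and over 1.5-fold it called 196 higher and 71 lower, and 115 and 39 of these were among the 133 and 43. At an unadjusted p under 0.05 there were 1519 genes (13.4%), at an FDR under 0.25 with no minimum fold 386 (3.4%), 226 of them higher (1.99%) and 160 lower (1.41%), and DESeq2 found 5 genes with an FDR under 0.05 and a change over 1.5-fold. The median difference over all tested genes was 0.02, and its median standard error was 0.19 against 0.14 for the insulin effect in Control, so the difference was measured less precisely than either effect.

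**Figure D1:**
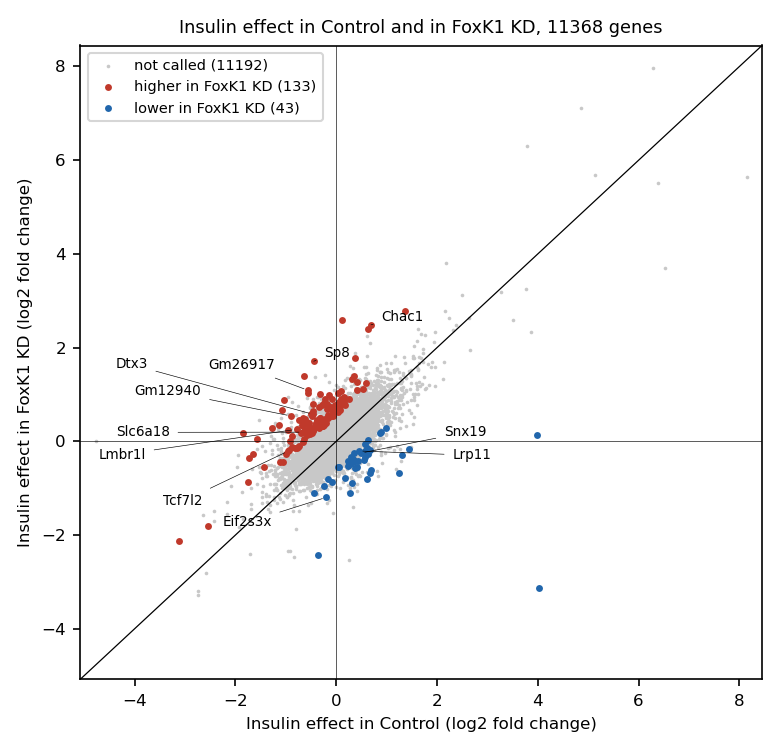
Insulin effect in Control (x axis) against FoxK1 KD (y axis), both as log2 fold changes, for 11368 genes. Grey points scatter around the line of equal effects, red points are the 133 genes called higher and blue points the 43 called lower in FoxK1 KD, and the 11 labelled genes were called whichever library was left out.

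For most of the 133 higher genes the insulin effects in the 2 kinds of cells pointed in different directions, each being modest. In Control the median insulin effect over these genes was -0.38 and in FoxK1 KD 0.44. Opposite signs were found in 91 of them, but both effects were themselves called, in opposite directions, in just 2. The insulin effect was called in FoxK1 KD and not in Control for 45, in Control and not in FoxK1 KD for 34, in neither for 46, and in both with the same sign for 6. Among the 43 lower genes the medians were 0.44 in Control and -0.43 in FoxK1 KD, and the effect was called in Control alone for 11, in FoxK1 KD alone for 9, in opposite directions for 4 and in neither for 19. Of the 133 higher genes, 45 were called lower in FoxK1 KD than in Control at basal and 26 were called higher after insulin. Of the 43 lower genes, 7 were called higher at basal and 14 lower after insulin. Over all tested genes FoxK1 KD differed from Control for 409 at basal (3.6%, 1.64% higher and 1.96% lower) and for 376 after insulin (3.31%, 2.57% higher and 0.739% lower). The shares among the called genes follow in part from the rule, since a gene is called by how its 4 group means combine.

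The counts depended on which libraries were present. Control basal replicate 1 stood alone on the second principal component of the 15 libraries (score 46, the others -20.1 to 7.7). Among the 4 Control basal libraries it had the highest level for 105 of the 133 higher genes and the lowest for 34 of the 43 lower genes. Over all tested genes it was the highest for 37.3% and the lowest for 36.2%. Without it, 17 genes were called higher and 8 lower, and 16 and 8 of these were among the calls with all libraries. All 176 genes kept their sign without it, and 113 still differed by more than 1.5-fold. Leaving out FoxK1 KD basal replicate 2 left 11 higher and 5 lower, and leaving out FoxK1 KD insulin replicate 4 left 14 and 3. Leaving out Control basal replicate 2 raised the counts to 398 and 125. With the spread estimated from the 4 groups alone, in place of all 30 libraries, no gene was called by edgeR (smallest FDR 0.455, 1038 genes or 9.3% at an unadjusted p under 0.05). The called genes differed from the rest in base composition. Median transcript GC content was 54.1% in the higher genes and 45.6% in the lower genes against 49.3% over all, and median length was 1994 and 4179 bases against 3393. Across genes within Control basal replicate 1 the level relative to the mean library rose with GC content (Spearman rho 0.229), whereas rho was -0.203 to -0.157 in the other Control basal libraries. It was -0.457 in FoxK1 KD basal replicate 2 and -0.174 to -0.110 in the other FoxK1 KD basal libraries. After insulin it was 0.407 in FoxK1 KD replicate 4, 0.0507 to 0.223 in the other FoxK1 KD libraries and -0.0715 to 0.200 in Control. Over the tested genes, rho of GC content was 0.326 with the insulin effect in FoxK1 KD and 0.0762 with that in Control. With the difference, rho was 0.316 for GC content and -0.325 for length. With each library's trend on GC content and length taken out, 41 genes were called higher and 34 lower, 36 and 25 of them among the calls above. Of the called genes named below, Dhrs3, Eri3, Atp13a3, Dcdc2a, Hivep2, Mvd, Ebp, Mapk3, Sik1 and Hes1 lost the call in that fit. So did Cdk4, Atp5g3, Atp5o, Cox7c, Rpl13a, Rpl27a, Fbl, Higd1a, Ifit3 and Fcor. The other called genes named below kept it. The part of base composition and of these libraries in the calls was not tested further.

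**Figure D2:**
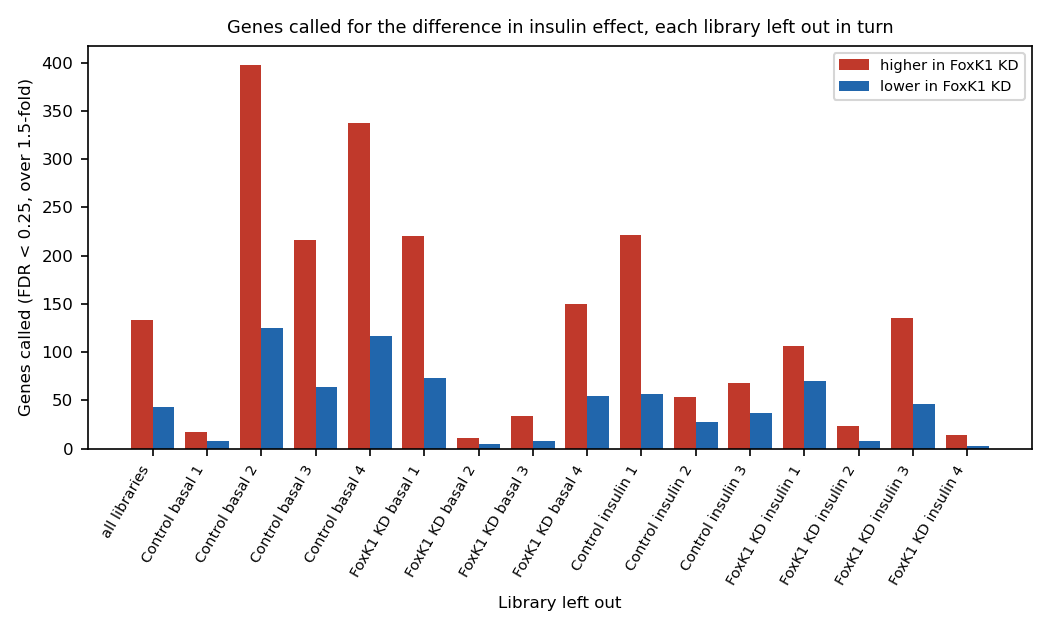
Number of genes called for the difference in insulin effect (y axis, FDR under 0.25 and over 1.5-fold) with all libraries and with each of the 15 libraries left out in turn (x axis). Red bars count genes higher and blue bars genes lower in FoxK1 KD, and the counts run from 11 to 398 and from 3 to 125.

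**Figure D3:**
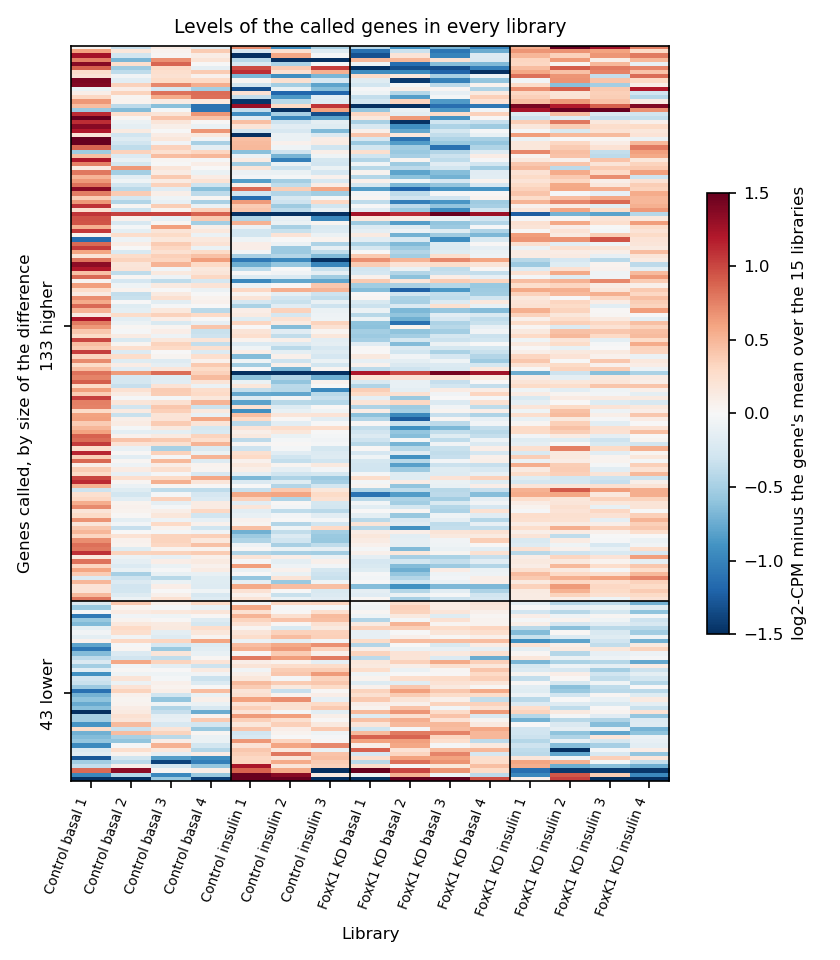
Level of the 176 called genes (rows, sorted by the size of the difference) in the 15 libraries (columns), as log2-CPM minus the gene's mean over these libraries, red above and blue below it. Control basal replicate 1, the first column, is the highest of the 4 Control basal libraries for 105 of the 133 genes above the horizontal line.

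Of the 176 genes, 11 were called in each of the 15 fits that left out a library, 8 of them higher and 3 lower in FoxK1 KD. They are described first. None of the 11 was called by edgeR in the fit to the 4 groups alone, or by edgeR at an FDR of 0.05 with all libraries and the filter used here.

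Tcf7l2 (chr19:55741820-55933654, plus strand) encodes a DNA-binding effector of Wnt signalling and is a major type 2 diabetes risk gene in humans. Its CPM was 55, 46, 54.6 and 52 in Control basal and fell to 24.5, 24.3 and 31.8 after insulin. In FoxK1 KD it was 51.6, 49.5, 40.5 and 53 at basal and 45.8, 43.3, 41.1 and 37.9 after insulin. Insulin separated the Control groups completely, while the FoxK1 KD groups overlapped. The log2 effect of insulin was -0.95 in Control and -0.21 in FoxK1 KD, and the difference was 0.74 ± 0.16 (SE, FDR = 0.0856), with 0.66 to 0.85 over the fits that left out a library. The cells did not differ at basal (log2 change -0.09, FDR = 0.612) beyond the threshold, and after insulin the FoxK1 KD libraries were all above the Control libraries (log2 change 0.65, FDR = 0.00197).

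Slc6a18 (chr13:73661752-73678023, minus strand), a transporter of neutral amino acids, also fell with insulin in Control, but its level differed between the cells at basal too. Control basal libraries held 25.5, 20.8, 18.9 and 20.7 CPM and Control insulin libraries 12.4, 14.2 and 14.1. FoxK1 KD basal libraries held 32.8, 28.1, 32.5 and 31.3 and FoxK1 KD insulin libraries 34.4, 35.8, 41.1 and 32.3. Every FoxK1 KD library was above every Control library. Insulin lowered the gene in Control (-0.66) and its effect in FoxK1 KD, 0.19, did not pass, with a difference of 0.85 ± 0.19 (SE, FDR = 0.0856).

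Lmbr1l (chr15:98903917-98918231, minus strand), a membrane protein, fell with insulin in Control, from 30.3, 18.3, 20.8 and 22.3 to 10.5, 13.3 and 16 CPM. In FoxK1 KD it was 20.1, 18.5, 16 and 19.8 at basal and 22.2, 23.9, 20.3 and 22.3 after insulin. The Control groups did not overlap, nor did the FoxK1 KD groups, whose effect (0.25) was under the fold threshold. The difference was 1.04 ± 0.22 (SE, FDR = 0.0856).

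Dtx3 (chr10:127190378-127195728, minus strand), a Deltex-family ubiquitin ligase, had 75.7, 48.3, 55.6 and 59.3 CPM in Control basal and 25.8, 49 and 56.6 in Control insulin libraries, which overlapped. It had 59.1, 47.5, 47.3 and 59.9 in FoxK1 KD basal and 70.2, 80.3, 87.2 and 82 in FoxK1 KD insulin libraries, which did not. The insulin effects were -0.46 and 0.58, neither past the fold threshold, and the difference was 1.03 ± 0.21 (SE, FDR = 0.0856). Control insulin replicate 1 was well below its replicates.

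Chac1 (chr2:119351229-119354381, plus strand) degrades glutathione and is a target of the ATF4 stress pathway. It was low throughout, with 9.64, 3.25, 6.2 and 4.46 CPM in Control basal and 10.3, 6.64 and 10.7 in Control insulin libraries. The FoxK1 KD basal libraries had 0.679, 1.65, 1.65 and 2.14, from 23 counts in all, and the FoxK1 KD insulin libraries 7.02, 9.71, 8.89 and 8.54. The FoxK1 KD basal group lay below every other library, and after insulin the 2 kinds of cells overlapped. Insulin raised it in Control by 0.69 and in FoxK1 KD by 2.49, a difference of 1.8 ± 0.43 (SE, FDR = 0.125). FoxK1 KD differed from Control by -1.91 at basal, which was called, and by -0.12 after insulin, which was not.

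Sp8 (chr12:118846329-118852576, plus strand), a zinc finger transcription factor of the SP family, showed a like form at a still lower level. It is named because it was among the 11, a choice made after its values were seen. Its CPM was 4.25, 3, 2.73 and 3.57 in Control basal, 2.11, 3.16 and 2.2 in Control insulin, 0.905, 1.98, 0.941 and 1.34 in FoxK1 KD basal and 4.43, 4.48, 4.23 and 3.34 in FoxK1 KD insulin libraries, from 19 to 58 counts a group. The FoxK1 KD groups did not overlap, and the Control groups did. Insulin raised it in FoxK1 KD (1.71), its effect in Control was -0.45, and the difference was 2.16 ± 0.53 (SE, FDR = 0.125).

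The other stable higher genes were non-coding. The lincRNA Gm26917 (chr17:39843013-39846341, plus strand), annotated within the locus of the 45S ribosomal RNA precursor, had 711, 239, 324 and 329 CPM in Control basal libraries, where replicate 1 was far above the others, and 271, 315 and 226 in Control insulin libraries. It had 234, 98, 131 and 177 in FoxK1 KD basal and 259.7, 426, 355 and 328 in FoxK1 KD insulin libraries, which did not overlap. Its difference was 1.65 ± 0.33 (SE, FDR = 0.0856), and 1.21 at the least over the fits that left out a library. The processed transcript Gm12940 fell with insulin in Control, from 23.1 ± 4.88 to 12.5 ± 5.25 CPM (mean ± SD), and was 18.1 ± 6.3 and 25.8 ± 3.87 in FoxK1 KD, a difference of 1.44 ± 0.35 (SE, FDR = 0.125).

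The 3 stable lower genes were Snx19, Lrp11 and Eif2s3x. Snx19 (chr9:30427108-30466733, plus strand), a sorting nexin of the endosomal pathway, had 40.3, 55.5, 52.1 and 46.2 CPM in Control basal and 65.7, 68.9 and 69.5 in Control insulin libraries. It had 63.8, 61.1, 68.2 and 65 in FoxK1 KD basal and 47.7, 54.5, 52.1 and 62.7 in FoxK1 KD insulin libraries. The Control groups were fully apart, and the FoxK1 KD groups overlapped through insulin replicate 4. The effects were 0.48 and -0.25, and the difference -0.74 ± 0.15 (SE, FDR = 0.0856), the smallest p of all genes. Lrp11 (chr10:7589800-7625483, plus strand), of the LDL receptor-related family, had 30.9, 33, 29.8 and 35.2 CPM in Control basal and 41.1, 47.1 and 44 in Control insulin libraries. It had 31.2, 36, 34.6 and 36.1 in FoxK1 KD basal and 27, 29.5, 30.1 and 32.7 in FoxK1 KD insulin libraries, which overlapped. The Control groups did not overlap, and the difference was -0.65 ± 0.15 (SE, FDR = 0.125). Eif2s3x (chrX:94188707-94212862, minus strand) encodes the gamma subunit of translation factor eIF2. It had 29.8, 68.3, 62.3 and 50.5 CPM in Control basal and 40.6, 51.2 and 47.2 in Control insulin libraries, which overlapped. It fell with insulin in FoxK1 KD from 69, 85.5, 83 and 69.8 to 40.3, 32.5, 28.4 and 32.3, with no overlap. The effects were -0.20 and -1.20, and the difference -1.0 ± 0.24 (SE, FDR = 0.125). A near-identical Y-linked copy exists, so reads of this gene could be split between copies.

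**Figure D4:**
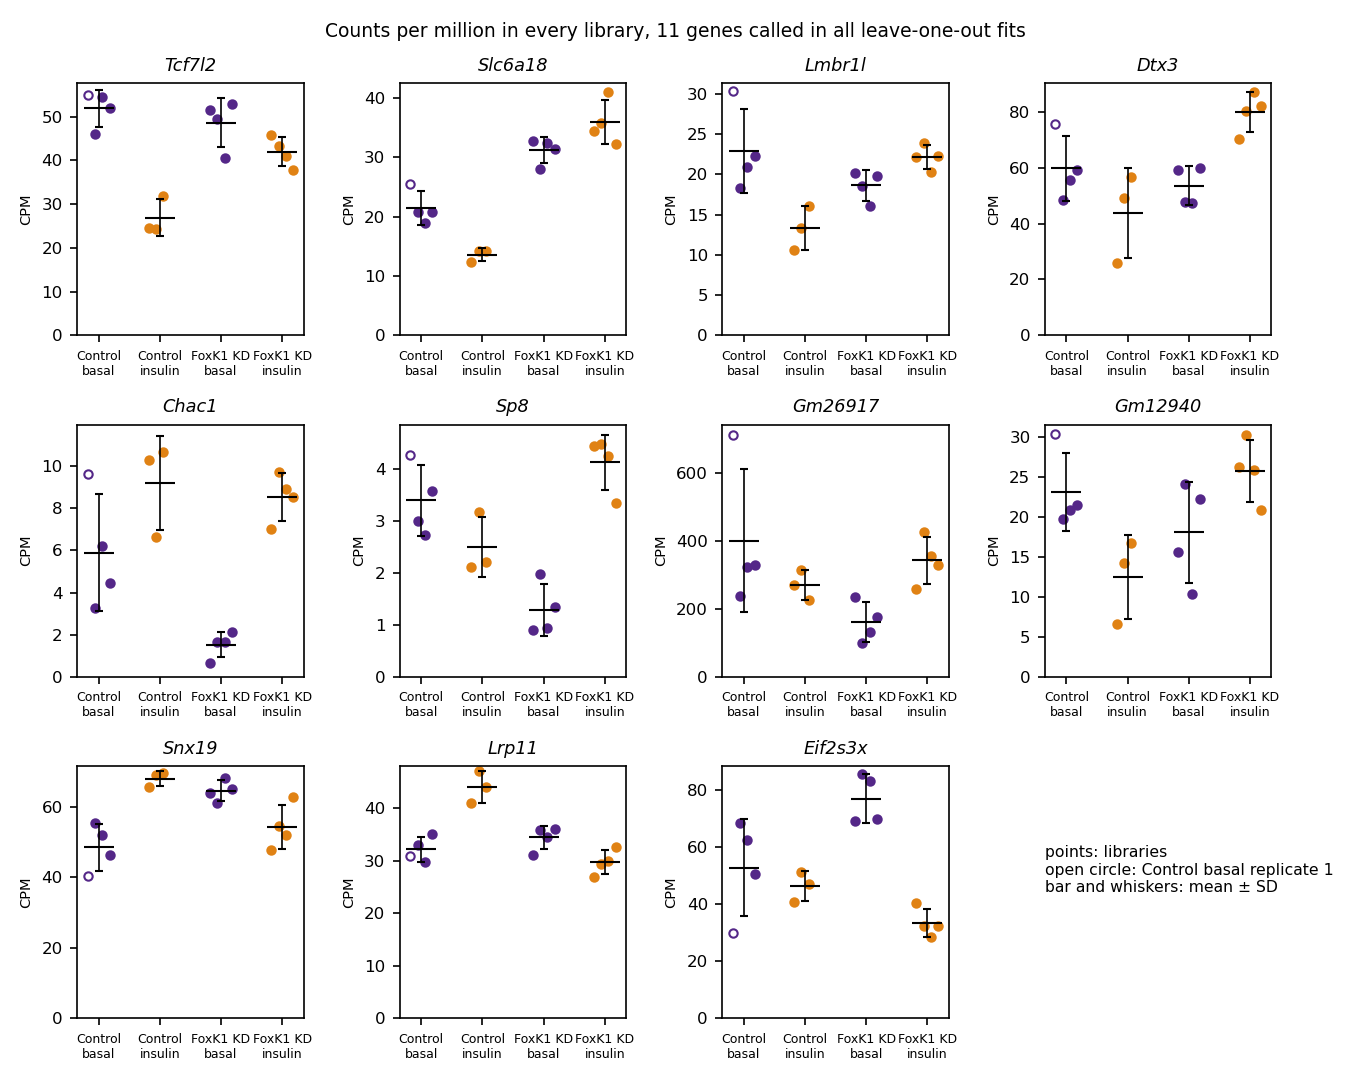
Level in CPM (y axis, from 0) of the 11 genes called in all 15 fits that left out a library, in each library of the 4 groups (x axis), purple at basal and orange after insulin. Bars and whiskers are the mean ± SD, and the open circle is Control basal replicate 1. For Tcf7l2, Slc6a18, Snx19 and Lrp11 the basal and insulin libraries are apart in Control and overlap in FoxK1 KD.

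The insulin effects of these genes in the other knockdowns (FoxK2 KD, n = 4 at basal and 4 after insulin, and DKD, in which both factors were knocked down, n = 4 and 3) share no libraries with the 4 groups. They were looked at after the other values were seen and stand here with no test. For Tcf7l2 the log2 effect was -0.56 in FoxK2 KD and 0.06 in DKD, against -0.95 in Control. For Slc6a18 it was -0.58 and -0.44, both nearer to Control than to FoxK1 KD. For Chac1 it was 1.42 and 1.67, between Control and FoxK1 KD. For Snx19 it was 0.24 and 0.23, for Lrp11 0.19 and 0.26, and for Eif2s3x -0.62 and -0.08. For Lmbr1l it was -0.09 and -0.33, for Dtx3 0.15 and 0.13, and for Sp8 0.47 and 0.33. For Gm26917 it was 0.31 and 0.38, and for Gm12940 -0.17 and 0.84. FoxK1 was knocked down in DKD too, and the DKD effects of Slc6a18, Snx19, Lrp11, Eif2s3x, Lmbr1l and Sp8 were nearer to those of Control than to those of FoxK1 KD, and those of the other 5 genes were nearer to FoxK1 KD.

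Among the other genes with the smallest p, Ypel3 and Dhrs3 were lowered by insulin in Control more than in FoxK1 KD. Ypel3, a small growth-suppressing protein, fell in both, from 57.6, 41.5, 40.9 and 50.7 to 15.3, 16.4 and 10.4 CPM in Control and from 53, 46.9, 54.1 and 49.5 to 24.4, 27.3, 24.6 and 35.6 in FoxK1 KD. No groups overlapped within either kind of cell, and the effects were -1.76 and -0.86, a difference of 0.89 ± 0.22 (SE, FDR = 0.125). Dhrs3, a retinaldehyde reductase, went from 373, 222, 228 and 279 to 117, 135 and 128 CPM in Control and from 223, 165, 214 and 236 to 164, 154, 149.9 and 149.6 in FoxK1 KD. The effects were -1.12 and -0.44, and the difference was 0.68 ± 0.17 (SE, FDR = 0.125). Without Control basal replicate 1, at 373 CPM, the Dhrs3 difference was 0.48, under the fold threshold, and the call was also lost without FoxK1 KD basal replicate 2. The Ypel3 call was lost without FoxK1 KD basal replicate 2 or FoxK1 KD insulin replicate 4.

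Ypel3 and Dhrs3 were also the only called genes with a promoter in the RefSeq table that held the forkhead core GTAAACA on either strand (TGTTTAC on the other), and their promoters are shown for that reason. The sequences are from RefSeq, build GRCm38.p6, 250 bases before to 50 after the start, 5′ to 3′ on the gene's plus strand, with the core in capitals.
Ypel3, chr7:126776713-126777012: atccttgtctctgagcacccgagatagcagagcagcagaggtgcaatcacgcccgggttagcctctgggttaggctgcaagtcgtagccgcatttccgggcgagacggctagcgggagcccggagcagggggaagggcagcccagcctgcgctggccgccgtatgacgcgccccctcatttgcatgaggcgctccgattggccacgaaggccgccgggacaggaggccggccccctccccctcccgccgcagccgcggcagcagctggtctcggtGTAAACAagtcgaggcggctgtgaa
Dhrs3, chr4:144892887-144893186: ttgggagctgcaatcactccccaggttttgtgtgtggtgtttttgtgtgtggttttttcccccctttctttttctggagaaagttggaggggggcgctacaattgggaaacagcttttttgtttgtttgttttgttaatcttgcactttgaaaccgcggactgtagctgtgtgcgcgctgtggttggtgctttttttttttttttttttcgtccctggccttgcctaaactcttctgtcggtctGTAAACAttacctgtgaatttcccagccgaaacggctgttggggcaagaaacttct
The core began at base 26 after the start in Ypel3 and 6 bases before it in Dhrs3. It was found in 2 of the 94 higher genes with a promoter searched (2.13%) and in 0 of 28 lower genes. It was found in 3.18% of the 8740 tested genes matched and in 3.65% of the 32851 promoters searched. The 7 stable genes with a promoter in the table had none. A match is a string of letters and not a bound site.

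The remaining genes with the smallest p are given by group means. Higher in FoxK1 KD were Exosc5, a subunit of the RNA exosome (from 19.5 ± 6.52 to 13.7 ± 2.1 CPM in Control and from 14.2 ± 2.02 to 21.6 ± 1.5 in FoxK1 KD, mean ± SD, difference 1.09, FDR = 0.125), and Eri3, an exoribonuclease (0.78, FDR = 0.125). Farsa, a subunit of phenylalanyl-tRNA synthetase, was 77.1 ± 23.5 and 78.5 ± 4.62 CPM in Control and rose from 55.4 ± 4.7 to 93.3 ± 6.32 in FoxK1 KD, with a difference of 0.71, FDR = 0.125. Control basal replicate 1 held 112 CPM of Farsa against 62.9 to 66.7 in the other Control basal libraries. Wtip, a LIM protein of cell junctions, fell with insulin in Control (-0.97) and was 0.24 in FoxK1 KD, a difference of 1.20, FDR = 0.125. Eri3 and Exosc5 kept the call in 14 of 15 fits that left out a library, Wtip in 13 and Farsa in 12.

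Of the genes lower in FoxK1 KD, Atp13a3, a P-type ATPase that transports polyamines, was 256, 316, 283 and 262 CPM in FoxK1 KD basal and 205, 188, 208 and 164 in FoxK1 KD insulin libraries, without overlap. Control was 247, 272, 279 and 284 at basal and 292, 254 and 297 after insulin, which overlapped, and the difference was -0.60 ± 0.13 (SE, FDR = 0.0856). The Atp13a3 call held in 10 of 15 fits that left out a library. It was lost without Control basal replicate 1 (-0.574), with the GC and length trend taken out (-0.405) and with a replicate block. Snx25, another sorting nexin, was 23 ± 2.86 and 33.9 ± 1.26 CPM in Control and 25.5 ± 4.05 and 22.3 ± 3.13 in FoxK1 KD (difference -0.77, FDR = 0.125). Senp5, a SUMO protease, differed by -0.79, FDR = 0.125 and Dcdc2a, a doublecortin protein of cilia, by -0.65, FDR = 0.142. Cd55, which protects cells from complement, was low, at 1.13, 2.75, 1.74 and 1.61 CPM in Control basal and 4.48, 4.11 and 5.03 in Control insulin libraries. It was 4.3, 5.61, 5.65 and 4.28 in FoxK1 KD at basal and 4.06, 3.36, 4.66 and 4.08 after insulin, so that Control basal lay apart from the other 3 groups, and the difference was -1.60 ± 0.44 (SE, FDR = 0.169). The Cd55 call held in 10 of 15 fits that left out a library and was lost without Control basal replicate 1 (-1.48). Lyst (-0.75, FDR = 0.169), Hivep2 (-0.76, FDR = 0.169), Faxc (-0.86, FDR = 0.169) and Erich5 (-1.42, FDR = 0.169) kept the call in 9 or 10 of 15 fits that left out a library. Lyst, a regulator of lysosome size, had 14.2 CPM in Control basal replicate 1 against 26 to 26.2 in the other Control basal libraries.

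Few genes of the best known insulin programmes differed. For each list below the count of called differences stands beside 1.17% higher and 0.378% lower over all genes, and the counts raised by insulin beside 6.08% in Control and 8.21% in FoxK1 KD. Of 27 tested genes of cholesterol synthesis and LDL uptake, insulin raised 10 in Control and 11 in FoxK1 KD, and 2 differed, both higher. Mvd, the decarboxylase of the mevalonate pathway, had 201, 143, 187 and 153 CPM in Control basal and 259, 239.9 and 238 in Control insulin libraries. It rose in FoxK1 KD from 112, 93.1, 109 and 109 to 222, 271, 217 and 213, so the levels after insulin overlapped and the basal levels did not. The effects were 0.52 and 1.12, and the difference was 0.60 ± 0.13 (SE, FDR = 0.101). Ebp, a sterol isomerase, was 306 ± 49.1 and 345 ± 99.4 CPM in Control and 218 ± 27.8 and 375 ± 41.8 in FoxK1 KD, a difference of 0.61, FDR = 0.202. The median difference over the list was 0.06. The Mvd call held in 9 of 15 fits that left out a library and the Ebp call in 8, and neither held without Control basal replicate 1. With the GC and length trend taken out the Mvd difference was 0.33 (FDR = 0.293) and not called.

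Of 40 tested nuclear-encoded subunits of respiratory complexes II to V, 4 differed, all higher in FoxK1 KD, and the list's median was 0.17. Cox6b1, a subunit of cytochrome c oxidase, had 87.3, 59.3, 76.2 and 95 CPM in Control basal and 98.4, 56.3 and 68.5 in Control insulin libraries. It rose in FoxK1 KD from 65.4, 50.2, 38.1 and 59.9 to 83.5, 111, 90.2 and 117, without overlap, and the difference was 1.0 ± 0.32 (SE, FDR = 0.211). Atp5g3 and Atp5o, of ATP synthase, differed by 0.73, FDR = 0.203 and 0.66, FDR = 0.214. Cox7c had 543, 108, 143 and 142 CPM in Control basal, the first library far above the rest, and 92.6, 54 and 61 in Control insulin libraries. It had 118, 165, 57.4 and 107 in FoxK1 KD at basal and 85, 93.7, 83 and 82.8 after insulin, and its difference was 1.37 ± 0.49 (SE, FDR = 0.245). These 4 genes kept the call in 5 to 9 of 15 fits that left out a library, and none was called without Control basal replicate 1. Of 34 complex I subunits 0 differed (median 0.18), as did 0 of 74 mitochondrial ribosomal proteins (median 0.10) and 0 of 11 transcripts of the mitochondrial genome (median -0.02).

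The 81 cytosolic ribosomal proteins tested had a median of 0.17, with Rpl13a (0.72, FDR = 0.214) and Rpl27a (0.67, FDR = 0.238) called higher and Rpl21 (-0.85, FDR = 0.192) lower. Ribosomal protein genes share reads with processed pseudogenes, so their values are uncertain. Of 36 ribosome biogenesis genes, the rRNA methyltransferase Fbl was called, at 50.7 ± 15.9 and 46.7 ± 1.56 CPM in Control and 37.6 ± 3.74 and 54.6 ± 9.85 in FoxK1 KD (0.64, FDR = 0.227). Fbl had 74.6 CPM in Control basal replicate 1 and 41.8 to 44.2 in the other Control basal libraries. Rpl21 kept the call in 9 of 15 fits that left out a library, Rpl13a in 7 and Rpl27a and Fbl in 6. None of them was called without Control basal replicate 1.

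Of 18 interferon-stimulated genes tested, 2 differed. Ifit3b fell with insulin in Control from 38.6, 37.5, 37 and 33.7 to 3.43, 5.69 and 3.46 CPM and in FoxK1 KD from 43.9, 40.3, 53.6 and 45 to 7.39, 10.8, 10.2 and 13.4. The 2 kinds of cells did not overlap at basal or after insulin, the effects were -3.13 and -2.13, and the difference was 1.0 ± 0.27 (SE, FDR = 0.161). Ifit3, its neighbour and close paralogue on chromosome 19, fell from 35.2 ± 5.26 to 5.95 ± 0.879 CPM in Control and from 52.2 ± 6.33 to 15 ± 2.01 in FoxK1 KD (0.75, FDR = 0.226). Reads of these paralogues could be split between them, so they are not separate evidence. Ifit3b kept the call in 10 and Ifit3 in 7 of 15 fits that left out a library, and neither was called without Control basal replicate 1. The list's median was 0.10.

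Single genes differed in 6 more lists. Of 39 genes of the ATF4 pathway, amino acid synthesis and tRNA charging, insulin raised 27 in Control and 26 in FoxK1 KD, and Chac1 alone differed. Of 24 NRF2 and glutathione genes, Gpx1, a glutathione peroxidase, was 161 ± 36.5 and 109 ± 19.4 CPM in Control and 120.4 ± 15.4 and 156 ± 20.1 in FoxK1 KD (0.93, FDR = 0.138). Of 19 G1 cyclins and CDK inhibitors, Cdk4 differed by 0.77, FDR = 0.211, with 1126 CPM in Control basal replicate 1 and 474 to 550.0 in its replicates. Of 16 hypoxia-type genes, Higd1a, a mitochondrial protein of hypoxia, rose in FoxK1 KD from 7.57 ± 1.69 to 18 ± 2.4 CPM against 12.3 ± 2.23 and 18.2 ± 2.15 in Control (0.67, FDR = 0.226). Of 23 hepatocyte plasma proteins and factors, Ttr differed by 1.13, FDR = 0.192. Of 20 matrix genes, Loxl2, which cross-links collagen, rose in Control from 25.6 ± 8.21 to 48 ± 4.9 CPM and was 32.1 ± 2.34 and 36.8 ± 4.95 in FoxK1 KD (-0.69, FDR = 0.201). Gpx1 kept the call in 11 of 15 fits that left out a library, Loxl2 in 9, Cdk4 and Ttr in 8 and Higd1a in 6. Of the genes in this paragraph, Chac1 alone was called without Control basal replicate 1.

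**Figure D5:**
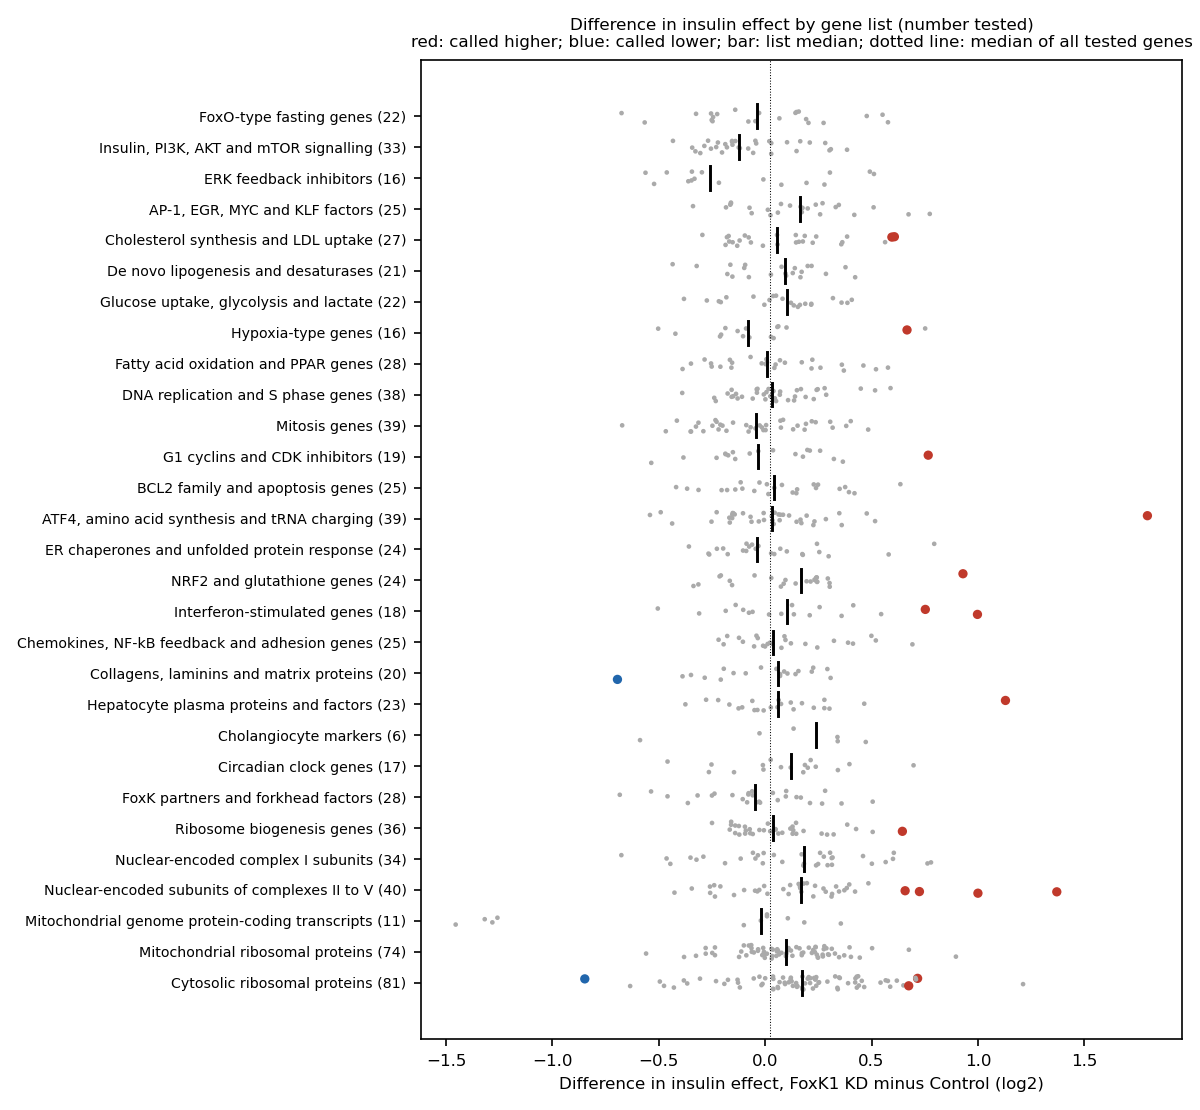
Difference in insulin effect, FoxK1 KD minus Control (x axis, log2), for the tested members of each gene list with at least 5 of them (y axis, number tested in parentheses). Red points were called higher, blue lower and grey not, black bars are list medians and the dotted line is the median of all tested genes, 0.02. Called genes are few in every list, and the largest count is 4 of 40 subunits of complexes II to V.

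In the other pathway lists no gene passed the threshold. These were 22 FoxO-type fasting genes (median -0.04), of which insulin lowered 7 in Control and 9 in FoxK1 KD, against 5.95% and 4.66% of all tested genes. Another such list held 33 genes of insulin, PI3K, AKT and mTOR signalling (-0.12), where the smallest p belonged to Gsk3b (-0.34, FDR = 0.227, short of 1.5-fold). Deptor, an mTOR inhibitor, fell from 103 ± 7.95 to 37.5 ± 4.28 CPM in Control and from 112 ± 5.48 to 53.2 ± 5.4 in FoxK1 KD, and its difference was 0.38 ± 0.15 (SE, FDR = 0.27). They were also 16 ERK feedback inhibitors (-0.26), 25 AP-1, EGR, MYC and KLF factors (0.17), 21 genes of lipogenesis (0.10) and 22 of glucose uptake and glycolysis (0.10). Insulin raised 20 of 38 DNA replication genes in Control and 20 in FoxK1 KD, with a median difference of 0.03. The remaining ones were 39 mitosis genes (-0.05), 28 genes of fatty acid oxidation (0.01), 25 of the BCL2 family and apoptosis (0.04), 24 of the unfolded protein response (-0.04), 25 chemokine and NF-kB genes (0.03), 17 clock genes (0.12) and 28 FoxK partners and forkhead factors (-0.05). A difference below the threshold does not show that the effects were alike.

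Of the genes the study names for their insulin response in DKD cells, a choice made on these libraries, 21 were taken here and 4 of them passed the filter. Insulin raised all 4 in both kinds of cells. Hk2, a hexokinase, went from 15.1 ± 2.67 to 50.1 ± 3.12 CPM in Control and from 13.6 ± 1.78 to 35.3 ± 1.42 in FoxK1 KD (-0.38, FDR = 0.341). The differences were -0.17, FDR = 0.822 for Slc7a11, -0.52, FDR = 0.652 for Dusp5 and -0.35, FDR = 0.863 for Spry4, and none passed. The median difference over the 4 was -0.36.

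Some called genes outside the lists bear on insulin signalling, and were chosen after their values were seen. Mapk3, the kinase ERK1, had 489.9, 286, 342 and 374 CPM in Control basal and 262, 197 and 212 in Control insulin libraries. It had 289, 249, 265 and 279 in FoxK1 KD at basal and 241, 264, 234 and 266 after insulin, where the groups overlapped, and the difference was 0.63 ± 0.16 (SE, FDR = 0.125). Sik1, a kinase that restrains gluconeogenic transcription, fell from 458, 271, 274 and 281 to 157, 152 and 151 CPM in Control. It was 227, 242, 221 and 253 in FoxK1 KD at basal and 161, 173, 183 and 180.4 after insulin (0.62, FDR = 0.142). Hes1, a Notch target repressor, differed by 0.75, FDR = 0.211. Mapk3, Sik1 and Hes1 were not called without Control basal replicate 1, with differences of 0.45, 0.39 and 0.44. Fcor, a corepressor of FoxO1, had 7 to 30 counts a group and rose in FoxK1 KD from 0.679, 0.33, 0.47 and 0.268 to 1.85, 4.11, 3.39 and 2.23 CPM. It was 1.13, 0.75, 1.24 and 0.893 in Control at basal and 2.11, 0.316 and 0.629 after insulin (2.46, FDR = 0.211). Fcor kept the call in 6 of 15 fits that left out a library. Without Control basal replicate 1 it was not called either, with a difference of 2.39, and with the 4 groups alone it was not tested.

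By gene type, 124 of the higher and 38 of the lower genes were protein-coding, of 10688 tested. Of 251 pseudogenes, insulin was called up for 83 in Control and 88 in FoxK1 KD and down for 17 and 22, against 6.08% and 8.21% up and 5.95% and 4.66% down over all genes, while the difference was called for 2 higher and 3 lower. The pseudogene Gm14173 was 21.8 ± 8.11 CPM in FoxK1 KD basal and 4.01 ± 0.527 in FoxK1 KD insulin libraries (-2.07, FDR = 0.203), with 18.2 ± 8.3 and 13.6 ± 9.54 in Control.

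The cells were checked against markers. Of 10 hepatocyte markers 8 passed the filter, but Alb, the most abundant liver transcript in vivo, was at 2.5 to 24.4 CPM and Apoa1 and Apoe were below the filter. Of 7 cholangiocyte markers 6 passed, with Krt19 at 323 to 753 CPM and Epcam at 0 in all 15 libraries. No gene of 7 endothelial markers passed, 1 of 10 stellate and fibroblast markers did (Vim), and 2 of 8 macrophage markers did (Cd14 and Csf1r), with Adgre1 and Marco at 0. The summed hepatocyte markers were 2133 to 2678 and 2504 to 2779 CPM in Control at basal and after insulin, and 2334 to 2540.3 and 2690.4 to 2944 in FoxK1 KD. Most of that sum came from the keratins Krt18 and Krt8 and from Apob, with means of 1090, 696 and 628 CPM over the 15 libraries. Alb, Ttr and Trf had means of 9.82, 30.7 and 13.4. The summed cholangiocyte markers were 1856 to 2315 and 2158 to 2692 in Control, and 1487 to 1890 and 2170 to 2413 in FoxK1 KD, with the 2 basal ranges overlapping. The summed macrophage markers were 106 to 145 and 101 to 135 in Control and 78.2 to 97.9 and 93.7 to 112 in FoxK1 KD, lower in FoxK1 KD at basal without overlap. The tested members went opposite ways at basal, Cd14 by -0.62 and Csf1r by 1.01, both called. Of the markers tested for the difference, 1 of 8 hepatocyte genes (Ttr, given above), 0 of 6 cholangiocyte (median 0.24), 0 of 2 macrophage and 0 of 1 stellate and fibroblast genes passed. Their part in the calls was not tested.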

How the data were processed

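Poly(A) RNA of AML12 cells was sequenced, and per the submitters' processing notes CASAVA 1.8, STAR 2.4.2a, featureCounts and GRCm38.p4 were used. The annotation release and strand setting were not given in the sources used here. The authors deposited 1 table of raw read counts per gene for each library, with no normalization. Columns mapped to no sample numbered 0, and groups came from the labels.

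Gene names and coordinates were taken from GENCODE M21, which matched 48435 of 49089 identifiers. Low genes were removed with filterByExpr (11368 kept), libraries were scaled by TMM, and edgeR 4.0.16 quasi-likelihood tests (R 4.3.3) were fitted to all 30 libraries and 8 groups, so that the groups share 1 estimate of spread. P-values were adjusted by Benjamini-Hochberg over all tested genes, and a call needed FDR under 0.25 and over 1.5-fold, after the study's thresholds. Log2-CPM values use a prior count of 2, and fitted log2 effects use edgeR's own default. Each SE was derived from the test, as the absolute log2 effect divided by the square root of its F statistic. CPM values use TMM library sizes. The depth of 2345903 to 5668270 counts per library limits precision for genes at a few CPM. The scripts were tested on simulated data.

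The lists and comparison were chosen with earlier results of these data known. Genes named are Foxk1 and Foxk2, the 12 called protein-coding genes with the smallest p in each direction with mean log2-CPM of at least 2, up to 4 called genes per list (or the 2 smallest p), the study's insulin genes in DKD that passed the filter (1 gene is not reported here), and up to 2 non-coding genes per direction. Sp8, Fcor, Mapk3, Sik1 and Hes1 were added after their values were seen. Of 33 lists, those of the stellate, macrophage and endothelial cells had 1, 2 and 0 tested genes. Alternatives were DESeq2 1.42.0, RLE scaling, limma-voom (limma 3.58.1), other filters and thresholds, fits to the 4 groups alone, replicate blocks, a spline (5 df) on GC content and length taken out of each library, and each library left out. Samples of the same replicate number did not deviate alike, which does not show that the cultures were unpaired. Within each of the 4 groups, no pair of libraries had counts that agreed within sampling noise. Other pairs were not checked.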

Additional observations from a re-analysis of the deposited data

Results flagged for a closer look

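The difference of the insulin effect between FoxK1 KD and Control passed its own test for 133 genes in the higher and 43 in the lower direction, as described above.

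In 279 groups of 4 libraries (93 genes) a single library stood apart from its 3 replicates by Dixon's criterion for the gap over the range in 26, or 9.32%. Of these, 11 were Control basal replicate 1. For independent genes picked without regard to their values chance gives about 1 in 20. These genes were mostly picked by the difference in insulin effect, which uses the same libraries, and genes of 1 library are not independent. The 9.32% is therefore no test against that rate. In Control basal replicate 1 Gm12940 was at 30.3 CPM (others 19.8 to 21.4), Farsa at 112 (62.9 to 66.7), Lyst at 14.2 (26.0 to 26.2) and Vcam1 at 351 (271 to 282). Cdk4 was at 1126 (474 to 550.0), Fbl at 74.6 (41.8 to 44.2), Cox7c at 543 (108 to 143) and Sox9 at 296 (239 to 248). Dbp was at 26.7 (14.8 to 16.4), Mrpl10 at 215 (95.5 to 114) and Sik1 at 458 (271 to 281). In FoxK1 KD basal cells, replicate 1 stood apart for Dcdc2a (48.0 CPM), Loxl2 (35.5) and mt-Nd6 (323), replicate 2 for Mvd (93.1) and replicate 3 for Bax (116). In FoxK1 KD insulin cells, replicate 1 stood apart for Gm14173 (4.80), replicate 2 for Mvd (271), Dbp (9.71), Jund (17.2) and Mrpl10 (128), replicate 3 for Sin3a (94.0) and Higd1a (14.4), and replicate 4 for Gpx1 (186), Elovl6 (251) and Hes1 (107).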

How the results depend on the processing

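The counts below are of genes whose insulin effect was called higher and lower in FoxK1 KD, 133 and 43 as reported. They were 112 and 39 with DESeq2, 131 and 50 with RLE scaling, 100 and 40 with limma-voom and 127 and 48 with at least 10 counts in every sample, where the insulin calls were 852 in Control and 912 in FoxK1 KD. With at least 1 count in any sample, which admits genes near 0, 196 and 71 were called, 115 and 39 of them shared with the calls as reported. Both counts were 0 in edgeR with only the 4 groups compared (fewer libraries and degrees of freedom, smallest FDR 0.455, 1038 genes at an unadjusted p under 0.05) and at an FDR of 0.05 (1519 genes at an unadjusted p under 0.05). At an FDR under 0.05 and over 1.5-fold, DESeq2 called 5 genes, and edgeR called 134 of 23784 with at least 1 count in any sample, 23 without Control basal replicate 2, and 1 each without FoxK1 KD basal replicate 1 or Control insulin replicate 3. Without a fold minimum they were 226 and 160, with 5303 insulin calls in Control and 6143 in FoxK1 KD. With the GC and length trend taken out they were 41 and 34, and with that and Control basal replicate 1 left out, chosen after seeing the data, 9 and 7. Leaving out 1 library at a time gave 11 to 398 higher and 3 to 125 lower, with 1315 to 1560 insulin calls in Control and 1385 to 1567 in FoxK1 KD. The counts moved by over 1.5 times in at least 1 direction without Control basal replicate 1 (17 and 8), 2 (398 and 125), 3 (216 and 64) or 4 (338 and 117). The same held without FoxK1 KD basal replicate 1 (220 and 73), 2 (11 and 5) or 3 (34 and 8), without Control insulin replicate 1 (221 and 57), 2 (54 and 28) or 3 (68 and 37), and without FoxK1 KD insulin replicate 1 (106 and 70), 2 (24 and 8) or 4 (14 and 3). The cause was not tested.

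Deviations from the group means correlated no more between same-numbered samples (mean r -0.0043, -0.13 to 0.11 over 21 pairs) than between others (0.0012, -0.20 to 0.14 over 63), and 2 of 15 samples correlated best with their own number. With a replicate block 137 genes were higher and 43 lower, 122 and 36 of them shared with the calls as reported, and insulin changed 1372 genes in Control and 1466 in FoxK1 KD.

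The sign of the difference turned for a few uncalled genes. With GC and length taken out Slc7a11 (-0.17 as reported) was 0.023. With Control basal replicate 1 left out as well, Slc7a11 was 0.053, Bax -0.037 and Vim -0.069. Leaving out 1 library at a time, Vim was -0.065 (without Control basal replicate 1) to 0.20, Slc7a11 -0.32 to 0.0068 (without Control insulin replicate 3), Spry4 -0.75 to 0.14 (without FoxK1 KD basal replicate 1, and 0.03 without Control basal replicate 3) and Foxk2 -0.032 (without FoxK1 KD basal replicate 1) to 0.089. Foxk2 was also below 0 without Control basal replicate 1 (-0.010) and without FoxK1 KD insulin replicate 1 (-0.020).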

Other observations

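Of 11 tested protein-coding transcripts of the mitochondrial genome, insulin lowered 5 and raised 1 in Control and lowered 6 and raised 0 in FoxK1 KD, against 5.95% and 4.66% of all tested genes called down, with median log2 effects of -0.39 and -0.67, and none differed by the threshold. Of 24 genes of the unfolded protein response, insulin raised 8 in Control and 10 in FoxK1 KD, against 6.08% and 8.21% of all tested genes called up (list medians 0.40 and 0.48). Neither contrast between the medians was tested.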
